A study of Drosophila melanogaster with 8 samples.

Results

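AGO2 peaks outside the major arms of chromosomes X, 2 and 3 were examined in Drosophila Kc167 cells, an embryonic hemocyte line that the labels give as female. A peak was a member when its sequence name in the deposited lists was not one of the 5 major arms, and 285 of 14441 peaks met this rule. They lay on chromosome 4, on chromosome Y and on 113 unplaced sequences, which are assembled pieces of the genome without a position in a chromosome. No member was removed by a filter on low values. The study asked whether AGO2 on chromatin depends on ongoing transcription, and compared mock-treated cells with cells given triptolide, which blocks transcription initiation, at 10 µM for 60 min. AGO2 was immunoprecipitated in 2 replicates of each treatment, each with its own input, so that 4 of the 8 samples gave a peak list and 4 were inputs. All cells were of the same line and carried no other treatment in the labels.

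AGO2 is the Argonaute protein of the Drosophila siRNA pathway. It is loaded with small RNAs made by Dicer-2, including endogenous siRNAs derived from transposons and other repeats, and it has also been found on chromatin at active promoters. Chromosome 4 is a small autosome in which active genes are embedded in repeats and heterochromatin. Most unplaced sequences come from pericentromeric heterochromatin and from the ribosomal DNA arrays on X and Y. R1 is a non-LTR retrotransposon that inserts at a fixed position of the large ribosomal RNA gene, and it depends on that array for its own transcription. The dodeca satellite is a GC-rich tandem repeat of the centromeric region of chromosome 3.

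Sequences around the summits of 7 peaks, each 120 bp long, show the kinds of DNA on which these peaks lay. They were read from the forward strand of the dm6 reference. The first pair is from the gene zfh2 and the next pair from R1 elements with a peak in all 4 lists. Capitals mark GAGAG or CACACA on either strand in these 4.
zfh2 promoter, chr4:501619-501738: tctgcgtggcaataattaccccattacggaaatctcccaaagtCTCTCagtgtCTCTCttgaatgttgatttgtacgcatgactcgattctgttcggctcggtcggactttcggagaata
zfh2 intron, chr4:508514-508633: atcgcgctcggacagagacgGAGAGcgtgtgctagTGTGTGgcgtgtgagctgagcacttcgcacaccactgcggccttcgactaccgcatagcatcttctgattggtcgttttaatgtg
R1, chrX_CP007103v1_random:1331-1450: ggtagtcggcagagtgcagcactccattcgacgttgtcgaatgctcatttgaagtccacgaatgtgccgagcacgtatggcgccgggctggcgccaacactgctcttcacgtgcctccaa
R1, chrX_DS483892v1_random:1534-1653: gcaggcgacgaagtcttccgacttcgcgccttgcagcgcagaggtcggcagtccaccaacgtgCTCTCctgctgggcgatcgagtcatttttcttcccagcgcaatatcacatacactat
The next pair is satellite DNA from peaks of mock replicate 2 and triptolide replicate 1. Capitals mark an exact copy of the 12 bp unit ACCGAGTACGGG on either strand, from any starting base.
Satellite, chrUn_DS483783v1:2058-2177: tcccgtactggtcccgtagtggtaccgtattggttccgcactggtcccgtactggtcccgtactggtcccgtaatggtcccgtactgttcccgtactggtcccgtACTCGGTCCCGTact
Satellite, chrUn_DS484004v1:2504-2623: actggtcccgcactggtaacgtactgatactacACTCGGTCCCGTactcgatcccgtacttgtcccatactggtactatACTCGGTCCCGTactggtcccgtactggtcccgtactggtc
The last sequence is a 5 bp tandem repeat with no capitals.
Tandem repeat, chrUn_CP007100v1:6290-6409: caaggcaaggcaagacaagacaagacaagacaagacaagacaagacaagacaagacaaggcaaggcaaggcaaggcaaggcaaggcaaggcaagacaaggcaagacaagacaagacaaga
The zfh2 peaks matched no annotated transposable element. The satellite lines are made of exact and degenerate copies of units of 11 to 12 bp.

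Mock replicate 1 held 29 peaks outside the major arms of 1055, mock replicate 2 held 34 of 1919, triptolide replicate 1 held 122 of 5594 and triptolide replicate 2 held 100 of 5873. The mean number was 31.5 ± 3.54 (SD, n = 2) in mock lists and 111 ± 15.6 (SD, n = 2) in triptolide lists, and the ranges did not overlap (log2 difference 1.82, p = 0.33, two-sided exact permutation test over lists). That p is the smallest that 2 lists against 2 can give, so no comparison of treatments here can pass 0.05. The whole lists lengthened alongside. As a share of each list the peaks took 2.75% (95% Wilson interval 1.92 to 3.92%), 1.77% (1.27 to 2.47%), 2.18% (1.83 to 2.6%) and 1.7% (1.4 to 2.07%). These shares overlapped between treatments (difference -0.318 percentage points, p = 0.667, exact permutation test), and the difference was 1.34 points among peaks with a −log10 q-value of at least 5 and 1.56 points among the 1055 top-scoring peaks of each list. The lists below are always in the order mock replicates 1 and 2, then triptolide replicates 1 and 2. The labels do not say whether replicates were separate cultures, so p-values measure only the spread between these lists, and intervals cover counting error only. The read depth behind the lists is unknown, and absence from a list is absence of a called peak, not of AGO2.

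The members fell into a few kinds of DNA. R1 lay below 178 peaks (62.5%) and a tandem repeat with a unit of 11 to 12 bp below 63 (22.1%). Another transposable element lay below 20, another tandem repeat below 5 and none of these below 17, while 2 peaks were on a sequence that could not be matched to a single reference entry. A peak was assigned to an element when annotated copies of that family covered at least 50% of it. By place, 163 peaks were on 66 sequences assigned to X, 65 on 31 sequences assigned to the centromeric region of chromosome 3, 16 on chromosome 4, 10 on Y, 6 on sequences assigned to X or Y, 2 on a sequence assigned to Y and 23 on unassigned sequences. The mitochondrial genome held no peak in any list. Of the 178 R1 peaks, 153 were on X-assigned sequences, and all 63 satellite peaks were on the chromosome 3 centromeric sequences.

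**Figure D1:**
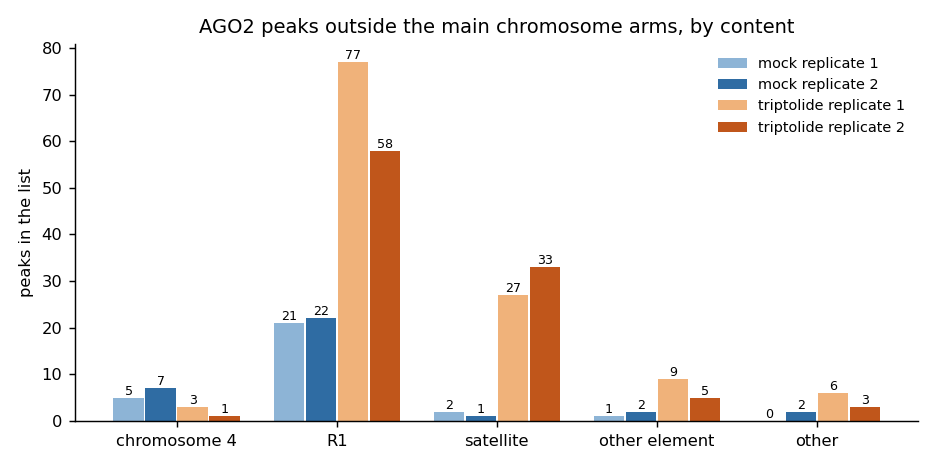
Number of peaks outside the major arms in each list (y axis), by the DNA below them (x axis), with chromosome 4 shown apart and 1 bar per list. R1 gave 21, 22, 77 and 58 peaks, satellite 2, 1, 27 and 33, and chromosome 4 was the group with fewer peaks in both triptolide lists (5 and 7 against 3 and 1).

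On chromosome 4, AGO2 peaks in mock cells were concentrated at the 5′ end of zfh2, and no peak of either triptolide list overlapped them. zfh2 (FBgn0004607, chr4:501810-540874, plus strand, dm6) encodes a zinc finger homeodomain transcription factor. Mock replicate 1 held 5 peaks on the chromosome, all at zfh2, and all 5 overlapped a peak of mock replicate 2. Mock replicate 2 held 7, triptolide replicate 1 held 3 and triptolide replicate 2 held 1. The chromosome's share of each list was 0.474%, 0.365%, 0.0536% and 0.017%, with both mock lists above both triptolide lists (difference -0.384 percentage points, p = 0.33, exact permutation test, the smallest possible).

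The zfh2 peaks formed 4 regions shared by the mock replicates. The region across the start of the gene, chr4:501453-501949, had a fold enrichment over input of 5.22 in mock replicate 1 and 4.31 in mock replicate 2. The next, chr4:502572-503227, also counted as promoter because promoters were taken as 1500 bp on either side of a transcription start, had 4.97 and 7.37. Both intronic regions lay further in. Region chr4:505143-505591 had a fold of 3.49 and 3.79. Region chr4:506835-508848 had 4.56 for the better of its 2 peaks in mock replicate 1 and 11.2 in mock replicate 2, where it was a single peak of 2014 bp with a −log10 q-value of 49.7, the highest of any member. Over all sequences 64.3% of regions shared by the mock replicates had no peak in either triptolide list, and 4 of 4 of these did (95% Wilson interval 51 to 100%). The single triptolide peak in zfh2, at chr4:525047-525339 in replicate 2 with a fold of 3.93, lay in an exon 23393 bp from the start.

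**Figure D2:**
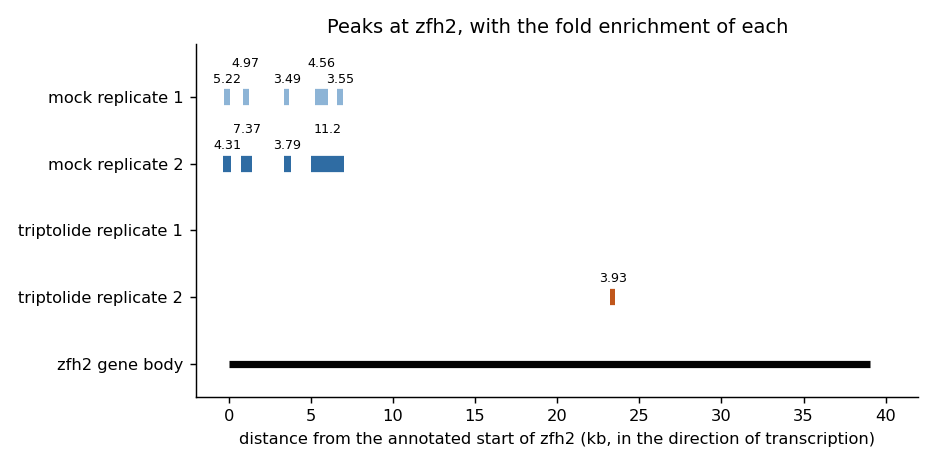
Peaks of the 4 lists along zfh2, with distance from its annotated start on the x axis, 1 line of bars per list and the fold enrichment over input printed above each peak. All 9 mock peaks lie at the 5′ end, and the triptolide peak with a fold of 3.93 lies inside the gene body.

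The other chromosome 4 peaks were each in 1 list. In mock replicate 2 a peak with a fold of 6.5 (chr4:557124-557591) lay at the divergent promoters of Pur-alpha, which binds single-stranded nucleic acids, and Tdg, a thymine DNA glycosylase, and over the noncoding lncRNA:CR43958. A peak with a fold of 6.25 (chr4:704243-704695) lay at a promoter of ey, the Pax6 gene of eye development. A weaker peak with a fold of 2.97 (chr4:1268535-1268861) lay in an intron of Cadps, which acts in vesicle release, over a copy of the DNA transposon Hoppel. In triptolide replicate 1 the 3 peaks were in an exon of ey (chr4:720363-720736, fold 3.8), over a gypsy8 fragment (chr4:146011-146373, fold 5.13) and over HeT-A, the telomeric retrotransposon (chr4:1295583-1295874, fold 4.58). Promoters held 40% and 57.1% of the chromosome 4 peaks in mock lists and 0% in both triptolide lists (difference -48.6 percentage points, p = 0.33, exact permutation test). This rests on 16 peaks in all, with 3 and 1 in the triptolide lists. The promoter share of major arm peaks was also lower after triptolide, at 77.7% and 75.9% in mock lists and 56% and 53.6% in triptolide lists.

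Of 114 annotated genes on chromosome 4, 6 had a peak of any list over the gene body or within 1500 bp of a transcription start. Pur-alpha counted only by the latter. Among the 13 transcription and chromatin regulators listed for the chromosome, zfh2 and ey had a peak. None of 12 signalling and guidance genes had any, 2 of 6 synaptic genes did (Cadps and Pur-alpha), and 1 of 11 housekeeping genes did (Tdg). These lists were drawn up with earlier results of these data known. Of all members, 79.3%, 79.4%, 99.2% and 99% were intergenic. Except for the ribosomal DNA sequence, the matched unplaced sequences with a peak carried no gene in the annotation used, so their peaks could only be counted as intergenic and no comparison with the major arms was drawn.

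R1 was the leading kind of DNA below the members in every list, with 72.4%, 64.7%, 63.1% and 58% of them. Mock lists averaged 68.6 ± 5.45% and triptolide lists 60.6 ± 3.62% (SD, n = 2 each), a difference of -8 percentage points (p = 0.33, exact permutation test). This direction turned with the choice of peaks, to 4 points among peaks with a −log10 q-value of at least 5 and to 32.8 points among equal numbers of top-scoring peaks. In both settings the R1 shares overlapped between treatments. The equal number keeps all of mock replicate 1, which held 29 of the 36 members then left in the mock lists. R1 made up 2.76% of the 300 bp windows outside the major arms, and other transposable elements 61.4%. Per Mb of such sequence there were 77.4, 81.1, 284 and 214 R1 peaks and 0.166, 0.497, 1.82 and 0.828 peaks on other elements. The major arms held 7.74, 14.2, 41.3 and 43.6 peaks per Mb, so R1 stood above them and other elements below them in all 4 lists. Windows of ribosomal RNA sequence, 0.717% of the total and only 70.5 kb, held no peak in any list. How many of their reads the authors' mapping quality filter removed was not tested.

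**Figure D3:**
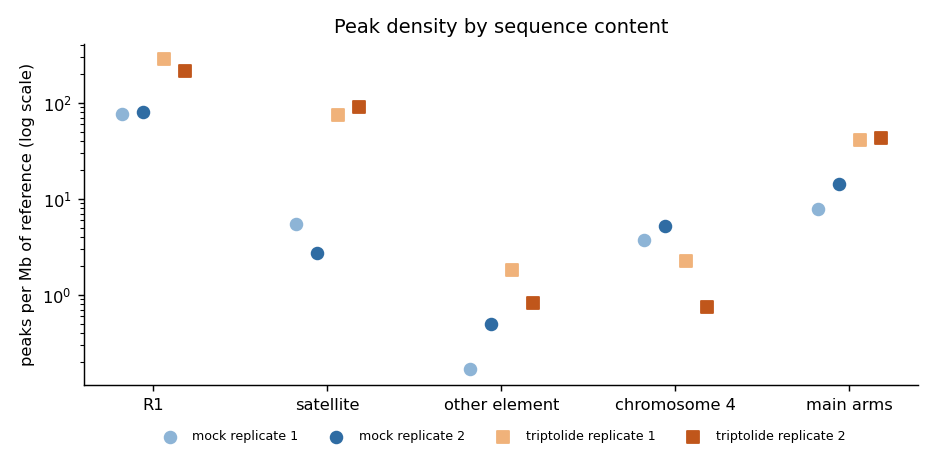
Peaks per Mb of reference sequence (y axis, log scale) on R1, satellite and other elements outside the major arms, on chromosome 4 and on the major arms, 1 point per list. R1 lies highest, between 77.4 and 284 peaks per Mb, and satellite moves from 5.51 and 2.75 in mock lists to 74.4 and 90.9 in triptolide lists.

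The R1 peaks were spread over many copies. Of 446 X-assigned sequences 112 held R1, and 62 of these had an R1 peak in at least 1 list (15, 17, 50 and 33 in the 4 lists). R1 was 25.6% of the windows of X-assigned sequences and lay below 100%, 87%, 95.8% and 92.3% of the peaks there. Among 13 listed transposon families, 9 had no peak, including the retrotransposons mdg1, roo, blood, Juan, gypsy and Doc and also R2, the other element that inserts in ribosomal RNA genes. The non-LTR element F had 3 and Hoppel had 1. The amount of sequence of each family was not counted, so a family without a peak may have little sequence there. Major arm peaks on R1 numbered 4, 3, 18 and 17, or 0.39%, 0.159%, 0.329% and 0.294% of the peaks on those arms, and overlapped between treatments (p = 1, exact permutation test). R1 copies resemble each other, and the authors had removed reads of low mapping quality. The part of this step in the count per copy was not tested.

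In 4 regions a peak was called in all 4 lists, and all 4 were R1 on X-assigned sequences. At chrX_CP007103v1_random:1120-1845, part of whose sequence is printed above, the fold enrichment was 6.02, 5.63, 7.06 and 7.24. At chrX_DS483843v1_random:1564-2091 it was 5.27, 5.05, 4.73 and 3.3. At chrX_DS483892v1_random:1338-1874, the other printed R1 sequence, it was 4.1, 5.14, 3.82 and 3.91. The neighbouring region at 1920-2820 had 2.49, 1.67, 3.33 and 3.64. Its mock peaks were among the lowest by score in their lists, at percentiles of 9.57 and 0.0521, and its triptolide peaks were at 98.2 and 98.9. Folds in both triptolide lists were above both mock lists in the first and the last of these regions and below them in the others. The remaining R1 region of both mock lists, chrX_DS483897v1_random:637-1305, with folds of 7.8 and 5.48, had no triptolide peak. Of the 9 regions with a peak in 3 lists, 8 were R1, and the highest folds among them were 9.49, 6.89 and 11 at chrUn_DS484303v1:1724-2314, which mock replicate 2 did not call.

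Of the 9 regions that the mock replicates shared outside the major arms, 5 were lost after triptolide (55.6%, 95% Wilson interval 26.7 to 81.1%), against 64.3% over all sequences. The other 4 were kept in both triptolide lists (44.4%, 18.9 to 73.3%), against 15.7% over all sequences. All 4 zfh2 regions and 1 of 5 R1 regions (20%, 3.62 to 62.4%) were lost, and the difference between them was not tested. Without chromosome 4 the share kept was 80% (4 of 5 regions), and among equal numbers of top-scoring peaks it was 0% (0 of 4). Taking every peak of a single mock list in place of the shared regions, the share kept was 23.5% without mock replicate 1 and 31% without mock replicate 2. Of the 48 regions shared by the triptolide replicates 35 had no mock peak (72.9%, 59 to 83.4%), against 90.9% over all sequences. For R1 this was 19 of 31 (61.3%, 43.8 to 76.3%).

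With all peaks taken, replicate overlap of the members was lower between the mock lists than between the triptolide lists. Of the members in mock replicate 1, 34.5% overlapped mock replicate 2, against 90% of all peaks, and the reverse share was 26.5% against 48.4%. In triptolide lists the shares were 41% against 56.7% and 51% against 53.9%. This order depended on the peaks taken. Averaged over both directions, mock and triptolide overlap was 36.4% and 38.5% with a −log10 q-value of at least 5. It was 37.2% and 33.5% with equal numbers of top-scoring peaks, and 70.2% and 32.5% without unplaced sequences. For R1 alone, 5 of 21 peaks of mock replicate 1 overlapped mock replicate 2, while 13 overlapped triptolide replicate 1 and 10 overlapped triptolide replicate 2. Of the 22 R1 peaks in mock replicate 2, 5 overlapped mock replicate 1, 14 overlapped triptolide replicate 1 and 8 overlapped triptolide replicate 2. Between the triptolide replicates 33 of 77 R1 peaks of replicate 1 (42.9%) and 33 of 58 of replicate 2 (56.9%) overlapped. The triptolide lists hold more R1 peaks to overlap, so these counts do not rank the lists by likeness. In all, the 285 peaks merged into 194 regions, of which 126 were in 1 list, 55 in 2, 9 in 3 and 4 in all 4.

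R1 peaks ranked low in the mock lists and high in the triptolide lists, and their own median enrichment was slightly lower in the latter. The score percentile gives the rank of a peak in its own list, with 50 as the middle. The median percentile of R1 peaks was 19.1 and 15.5 in mock lists and 71.9 and 61.8 in triptolide lists (difference 49.5, p = 0.33, exact permutation test). The median fold enrichment of the same peaks was 5.27, 5.07, 4.45 and 4.61, with −log10 q-values of 5.52, 5.04, 5.04 and 4.36 at the median. The rest of the lists differed more. Peaks on the major arms had a median fold of 5, 4.73, 3.39 and 3.45, and 85.2%, 85.3%, 28.3% and 24.6% of them had a −log10 q-value of at least 5. R1 folds exceeded the major arm median by 0.273, 0.335, 1.06 and 1.16 (p = 0.125, exact sign-flip test, the smallest that 4 lists can give).

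**Figure D4:**
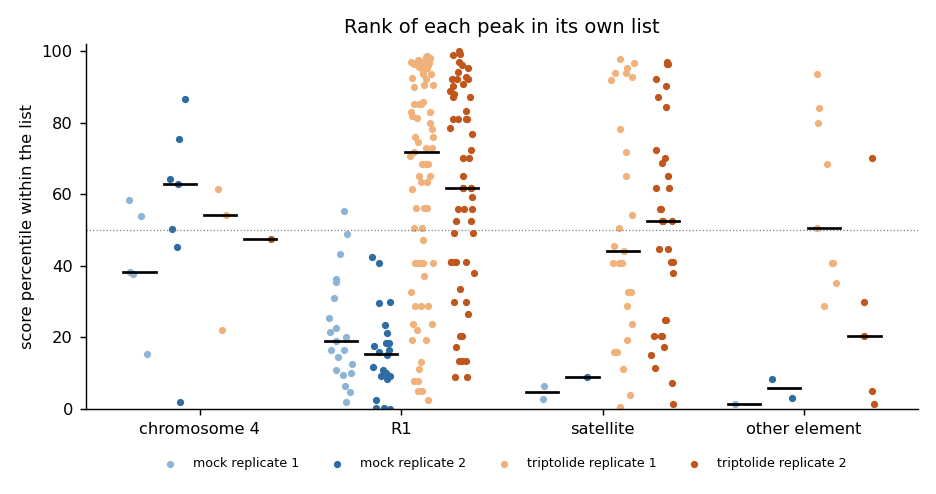
Score percentile of each member within its own list (y axis), by the DNA below it, with 1 point per peak, black bars for medians and a dotted line at 50. R1 medians are 19.1 and 15.5 in mock lists and 71.9 and 61.8 in triptolide lists, and those of chromosome 4 are 38.4, 62.8, 54.1 and 47.4.

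Over all members the median percentile was 19.1, 17.1, 66.9 and 57.6, against 51, 50.5, 50.5 and 49.2 on the major arms. A −log10 q-value of at least 5 was reached by 58.6%, 55.9%, 45.9% and 33% of members, against 84.5%, 84.7%, 28.7% and 24.8% of all peaks. The members were thus below the whole list in mock and above it after triptolide. Their median width was 380, 388, 401 and 371 bp, and those on the major arms had 415, 465, 386 and 388 bp (p = 0.25, exact sign-flip test). Soft-masked repeat sequence covered a median of 94.3%, 93.7%, 96.7% and 95.8% of a member and 14.9%, 14.9%, 3.73% and 3.34% of a major arm peak (p = 0.125, exact sign-flip test).

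Along the element, R1 peaks lay nearer to the 5′ end in triptolide lists. Positions were taken from alignment to the longest annotated R1A1 copy, at X:23234385-23239717, plus strand, 5333 bp. Bases before the midpoint made up 48.6% and 58.8% of the aligned bases in mock lists and 63.7% and 74.4% in triptolide lists, and 53% in all R1 windows outside the major arms. The groups did not overlap (difference 15.4 percentage points, p = 0.33, exact permutation test, the smallest possible). The bin from 501 to 1000 bp held 5.27% and 14% in mock lists against 21% and 26.7% in triptolide lists, with 9.84% in all R1 windows (difference 14.2 points, p = 0.33, exact permutation test). Summits had a median position of 2823 and 2559 bp in mock lists and 1777 and 1695 bp in triptolide lists. The 4 regions present in all lists were mixed. At chrX_CP007103v1_random:1120-1845 the summits aligned at 3420, 3424, 3406 and 3423 bp, and at chrX_DS483843v1_random:1564-2091 at 461, 451, 611 and 699 bp. On chrX_DS483892v1_random they aligned at 2400, 2612, 2397 and 2371 bp in region 1338-1874, where triptolide replicate 1 was almost level with mock replicate 1. In region 1920-2820 they aligned at 1551, 1686, 1787 and 1786 bp, farther from the 5′ end in both triptolide lists. Median identity to the reference copy was 94.3%, 96.3%, 94.4% and 94.9%, against 97.3% for all R1 windows.

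**Figure D5:**
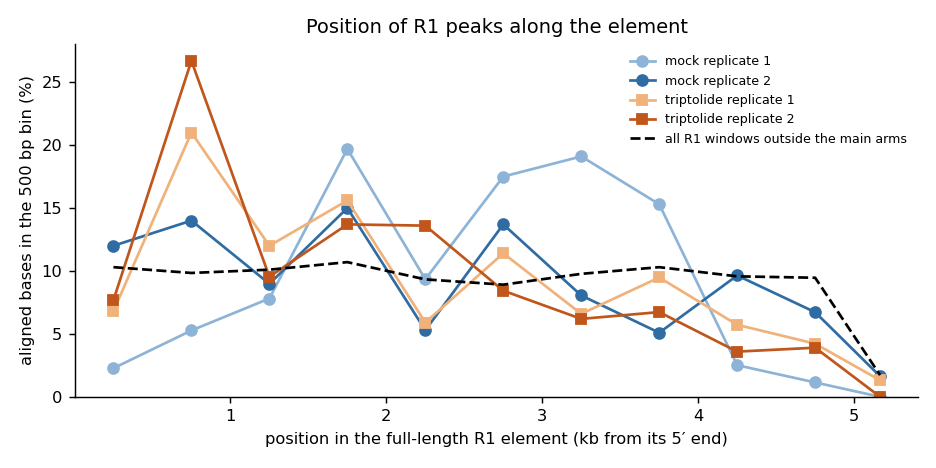
Share of aligned bases (y axis, percent) in bins of 500 bp along the R1 element (x axis, kb from its 5′ end, the last bin shorter) for R1 peaks of each list and for all R1 windows outside the major arms (dashed). The bin from 501 to 1000 bp holds 21% and 26.7% in triptolide lists and 5.27% and 14% in mock lists, and the dashed line is near 10% until the last bin.

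Satellite peaks numbered 2, 1, 27 and 33, so 60 of the 63 were in triptolide lists. They were 6.9%, 2.94%, 22.1% and 33% of the members in each list (mean 4.92 ± 2.8% against 27.6 ± 7.69%, SD, n = 2, difference 22.6 percentage points, p = 0.33, exact permutation test), and both triptolide lists stood above both mock lists. The difference was 18.6 points among peaks with a −log10 q-value of at least 5 and 17.8 points among equal numbers of top-scoring peaks. As a share of the whole list they were 0.19%, 0.0521%, 0.483% and 0.562%. Their density was 5.51, 2.75, 74.4 and 90.9 peaks per Mb of satellite. Mock satellite peaks were thus below the density of the major arms, and triptolide satellite peaks above it.

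The satellite was identified from its letters. Of the 63 peaks, 60 (95.2%) held at least 2 adjacent exact copies of the 11 bp unit ACCAGTACGGG and 47 (74.6%) at least 2 of the 12 bp unit ACCGAGTACGGG, which is the dodeca unit, and a peak could hold both. The printed triptolide sequence shows the 12 bp unit between degenerate copies. Median GC content was 60.3% and 60% in the triptolide lists, and 61% in all satellite windows of these sequences. Of 144 sequences assigned to the chromosome 3 centromeric region 105 held the satellite and 30 of those had a satellite peak, 2 and 1 in mock lists and 20 and 24 in triptolide lists. On the major arms, 5, 0, 18 and 24 peaks held 2 adjacent units, or 0.487%, 0%, 0.329% and 0.416% of the peaks there, and all but 2 of them were on arm 3R. There the treatments overlapped (difference 0.129 points, p = 1, exact permutation test).

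Satellite peaks had median folds of 3.61, 4.56, 4.31 and 4.08, and their median percentile was 4.69 and 8.83 in mock lists and 44.2 and 52.4 in triptolide lists. The region chrUn_DS484343v1:1294-2077 was the satellite region with a peak in 3 lists, with folds of 3.83 in mock replicate 1, 5.64 in triptolide replicate 1 and 3.03 in triptolide replicate 2. Of 11 satellite regions shared by the triptolide replicates 10 had no mock peak (90.9%, 62.3 to 98.4%), the same share as over all sequences (90.9%).

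The 8 best ranked regions of both triptolide lists without a mock peak were 4 R1, 2 satellite, 1 gypsy8 and 1 tandem repeat regions. The highest was R1 at chrUn_DS483961v1:2204-2727 with folds of 4.73 and 5.34 and a mean percentile of 96.3. The tandem repeat of chrUn_DS484923v1:1-307 had folds of 9.9 and 5.18, and R1 of chrY:989173-989724 had 7.12 and 5.59. The satellite regions were chrUn_DS483944v1:888-1452 with 5.13 and 3.85 and chrUn_DS483659v1:1653-2239 with 3.47 and 3.5. The gypsy8 region, chrUn_DS483880v1:1-557, had 3.38 and 5.15. All of them lay on repeats.

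Chromosome Y held 1, 0, 5 and 4 peaks in 8 regions although the line is labelled female, and the origin of these reads was not tested. R1 lay below 6 of the 8 regions, in clusters at chrY:956152-957784 and chrY:989173-994634, where the region at 991200-991742 had folds of 7.55 and 5.37 in the triptolide lists. The remaining pair, each in triptolide replicate 1, lay on HeT-A (chrY:2900302-2900593, fold 4.48) and on no annotated element (chrY:1448621-1449037, fold 5.35). None of 113 annotated Y genes, among them 12 listed fertility and other Y genes, had a peak by the same rule. By number of peaks the leading unplaced sequences were chrX_CP007103v1_random with 14 peaks in 33320 bp, chrX_DS483892v1_random with 10 in 4013 bp and chrX_DS484187v1_random with 8 in 2671 bp. All are X-assigned sequences with R1 copies.

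The remaining elements gave few peaks. HeT-A had 4, F had 3 and the other 8 families had 1 to 3 each. Peaks on 5 bp tandem repeats were at chrUn_CP007100v1, where mock replicate 2 (fold 2.84) and triptolide replicate 1 (fold 3.54, percentile 99) each had a peak over the printed sequence, at chrUn_DS484923v1 and at chrUn_DS485995v1 (fold 2.87 in triptolide replicate 1).

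Base composition differed between the lists. Median GC content of the members was 54.9%, 54.5%, 57.4% and 58.4% (difference 3.24 percentage points, p = 0.33, exact permutation test), with both triptolide lists above both mock lists. GAGAG, read on either strand as GAGAG or CTCTC in 300 bp around the summit, was in 62.1%, 67.6%, 38% and 42.4% of the members, against 31.5% of windows of the same sequences and 30.3% of windows of the major arms. It was in 14 of 16 chromosome 4 peaks (87.5%), as in both printed zfh2 sequences. Most of these peaks were calls of the same zfh2 regions in both mock lists, and chromosome 4 windows were not counted apart. GAGAG was in 55.6% of R1 peaks and 56.5% of R1 windows, and in 3.17% of satellite peaks and 2.4% of satellite windows. Peaks on R1 and satellite thus had it about as often as these repeats themselves. CACACA, also counted as TGTGTG, was in 24.1%, 20.6%, 6.61% and 7.07% of members and in 7 of 16 chromosome 4 peaks (43.8%). It was in 13.4% of windows of the same sequences and 21.8% of windows of the major arms. R1 windows had it in 12.6% and satellite windows in 0.744%. TATCGATA was in none, against 1.41% of windows of the same sequences, and a run of 8 A or of 8 T was in 1, against 11.6%. R1 and satellite windows seldom had either. TATCGATA was in 0% of both, and such a run was in 0.885% of R1 windows and 0.579% of satellite windows. Matches of different motifs may overlap, and each was counted on its own.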

How the data were processed

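AGO2 chromatin immunoprecipitation was read from 4 deposited peak lists, 1 per replicate. According to the labels and methods, the authors trimmed reads with cutadapt (1.10 in the submitters' processing notes), aligned them to dm6 with Bowtie2, removed reads of low mapping quality, marked duplicates with Picard (2.11.0) and called peaks of each replicate against its own input with MACS2 2.1.1.20160309. The deposited columns are a score, the fold enrichment over input (a ratio), and p-value and q-value as −log10. In all 14441 peaks the deposited score equalled 10 times the −log10 q-value with its decimals dropped, and the smallest deposited −log10 q-value was 1.32. Read depth is not given in the sources used here, and peaks could be compared by presence, rank and fold, not by reads.

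The members and lists were chosen with earlier results of these data known. Peaks of the 4 lists were merged into regions at an overlap of 1 bp. Regions named in the text were those in at least 3 lists, those in both mock lists, the 8 best ranked of both triptolide lists alone, those on Y and the unplaced sequences with the 3 largest numbers of peaks, and other chromosome 4 peaks were added after their values were seen. The fixed design matched unplaced sequences by an assembly report or by equal length. Neither was used here, and names were matched by the constant shift between accession numbers. It put all peaks inside a sequence and off gaps for 104 of 104 shotgun sequences, each with a fitting chromosome name. The next best of 4801 shifts put the peaks of 85 inside a sequence and fitted the chromosome name of 42. For 9 joined sequences 2 assignments were equally good, and the 2 peaks of the sequence in doubt have no content. Content was found with blastn 2.17.0 (E-value 1e-10) against 5627 annotated elements, and by the share of bases equal to those at a shift of 2 to 60 bp, with 0.5 or more called tandem. The repeat classes, their tests and the R1 positions were chosen after seeing the data. Genes were from the BDGP6.54 annotation (Ensembl release 115). Treatments were compared with two-sided exact permutation tests over lists, and members with major arm peaks by exact sign-flip tests within lists. These were 28 and 12 tests, and the smallest p-value adjusted over each family (Benjamini-Hochberg) was 0.548 and 0.25. Shares have Wilson intervals. Alternatives were stricter or equal numbers of peaks, sequences or lists left out, other overlaps and promoters, summit windows and a replicate block. The code was tested on simulated data. Software was Python 3.11.15, pandas 2.3.3, numpy 2.4.6, scipy 1.17.1 and matplotlib 3.10.9.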

Additional observations from a re-analysis of the deposited data

Results flagged for a closer look

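In 3 results the members moved one way against the major arms in both mock lists and the opposite way in both triptolide lists. The median score percentile of the members minus that of the major arms was -31.9 and -33.5 in mock lists and 16.4 and 8.42 in triptolide lists, a difference of 45.1 between treatments. For R1 peaks it was -31.9 and -35 against 21.4 and 12.7, a difference of 50.5. The median GC content minus that of the major arms was 3.63 and 5.58 percentage points in mock lists and -1.52 and -1.41 in triptolide lists, a difference of -6.07. Each has p = 0.33 in the exact permutation test over 2 lists against 2, the smallest it can give, so the difference between treatments is not shown by the test. The major arm median GC itself went from 51.2% and 48.9% to 58.9% and 59.9%, and the major arm median fold from 5 and 4.73 to 3.39 and 3.45. The part of these shifts in the results was not tested.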

How the results depend on the processing

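The 17 results were recomputed under 14 alternatives, which gave 141 values, of which 11 changed sign, 14 moved by more than the limit set for their kind, and 116 kept their direction and their side of any threshold, some with large moves. Among these the soft-masked difference went from 2.2 to 42 points with equal numbers of peaks and 65.2 without unplaced sequences, the Y and unplaced difference from 0.0655 to 1.75 (q-value minimum) and 2.09 points (equal numbers), and the GC difference from 3.24 to 7.93 points without unplaced sequences. With a −log10 q-value of at least 5 the share of members changed by 1.34 points, the width against the major arms was 13.4 bp in place of -28.5, the R1 share changed by 4 points and the triptolide replicate overlap was 38.5% in place of 46%. With equal numbers of top-scoring peaks the same values were 1.56 points, 16.2 bp, 32.8 points and 33.5%, and the R1 shares overlapped between treatments. Of the shared mock regions 100% were then lost (4 of 4) and 0% kept. Without unplaced sequences the log2 difference in peak number was 0 and the percentile against the major arms 4.81 in place of -10.1. Replicate overlap was then 70.2% in mock (30.5% before) and 32.5% in triptolide lists. Of the shared mock regions 100% were lost (4 of 4) and 0% kept, and 100% of shared triptolide regions (2 of 2) had no mock peak. Without chromosome 4 the share of members changed by 0.0655 points and the mock overlap was 19.7%. Of 5 shared mock regions 20% were then lost and 80% kept. The cause of these changes was not tested.

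Leaving out each list in turn moved the share of members between -0.807 (without mock replicate 2) and 0.17 points (without mock replicate 1), that of Y and unplaced sequences between -0.368 (without mock replicate 2) and 0.499 points, with -0.155 without triptolide replicate 1, and triptolide regions with no mock peak between 79.5% and 84%. Shared mock regions lost were 41.4% to 55.9% and kept 23.5% to 44.4%. No other direction changed.

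With the replicate number as a block, the share of members changed by -0.318 points and the number by a log2 of 1.81 (p = 0.5, exact permutation within numbers, the smallest possible), and no direction changed. Same-numbered lists did not deviate together (correlation -0.0285 over 9664 regions and -0.0147 over 194 outside the major arms), so the numbers were not taken as pairs. The promoter share of chromosome 4 could not be computed with either stricter choice of peaks, because a triptolide list then had no peak there. With 2 lists per treatment no test could pass 0.05, read depth is unknown, and 19 members lay near the threshold for a tandem repeat (self-match of 0.4 to 0.6) and 6 near that for an element (25 to 75% covered).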
